A study of Drosophila melanogaster with 8 samples.

Results

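Integrins, the linker proteins on their inner side and one of their matrix ligands were followed across 3 Drosophila melanogaster cell lines. The 8 genes were taken by symbol from the annotation of the array: the beta subunit genes mys and Itgbn, the alpha subunit genes if, mew and scb, the linker genes rhea and Ilk, and the ligand gene Tig. They are covered by 9 of the 13966 tested probe sets of the DrosGenome1 array and make up 8 of the 10844 genes with a probe set of their own. Only rhea has 2 probe sets. RasV12 is 1 line derived from embryos by expression of oncogenic Ras (RasV12, a form of the GTPase that stays active), profiled at passage 12 on 3 arrays. L2, on 1 array, and CL8, on 4 arrays, are described in the labels as cell lines only. The driver of the Ras transgene and the passages of L2 and CL8 are not given in the sources used here, and Ras85D has no probe set of its own among the names used, so the transgene was not checked. Cultures were harvested at 70% confluence, a separate T-flask for every sample, so the p-values measure the spread between flasks of a line. L2 has no replicate and is assumed in each test to vary like the other lines.

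Integrins are cell surface receptors made of an alpha and a beta chain that bind extracellular matrix outside the cell and, through linker proteins, the actin cytoskeleton inside it. In the fly, mys encodes the beta chain shared by most integrins, which pairs with the alpha chains of mew, if or scb. These receptors are known for holding muscles to their attachment sites and the layers of the wing to each other. Talin, encoded by rhea, binds the tail of the beta chain, and Ilk encodes integrin-linked kinase, a scaffold at the same adhesion sites.

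Within a line the Pearson correlation over all probe sets was 0.997 between RasV12 arrays and of 0.992 to 0.998 between CL8 arrays, against 0.933 to 0.952 between arrays of different lines. The lines differed in their overall distribution, with upper quartiles of 8.09 to 8.17 in RasV12, 8.32 in L2 and 8.96 to 8.99 in CL8. Each difference is therefore given on the deposited log2 values and again after quantile normalization of the 8 arrays, called rescaled below. On rescaling, the median over all probe sets shifted by 0.13 for RasV12 against CL8, by -0.26 for L2 against CL8 and by 0.38 for RasV12 against L2. The shift was not the same for all probe sets. For the 9 probe sets of the 8 genes, the median difference between RasV12 and CL8 went from 0.19 to 1.01. Background was judged by the highest of 23 control probe sets that match neither fly RNA nor the spiked-in RNAs, which read 3.24 to 3.47 on the RasV12 arrays, 4.04 on the L2 array and 2.98 to 3.41 on the CL8 arrays. A line was taken as within these controls where no majority of its arrays exceeded them. A probe set was called when its limma adjusted p was under 0.05.

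Between RasV12 and CL8, the ligand gene Tig and the receptor genes if, mew and mys were higher in RasV12 and the linker gene Ilk was lower, in both scalings. The talin gene rhea gave different answers on its 2 probe sets, scb did not pass the test, and Itgbn lay within the background controls in RasV12 and barely above them in CL8. As deposited, 6 of the 9 probe sets were called, beside 49.9% of all tested probe sets: 4 higher, beside 11.3%, and 2 lower, beside 38.6%. Rescaled, 6 were again called, beside 65.2% of all: 5 higher, beside 35.5%, and 1 lower, beside 29.8%. The RasV12 and CL8 arrays did not overlap on 6 of the 9 in either scaling, beside 56.6% of all as deposited and 70.7% rescaled. The median difference of the 9 probe sets was 0.19 as deposited and 1.01 rescaled, and that of all probe sets -0.078 and 0.055. Between L2 and CL8, 6 probe sets were called, beside 61.8% of all: 3 higher, beside 38.3%, and 3 lower, beside 23.6%. Rescaled, 3 were called, beside 37.6% of all: 2 higher, beside 20.2%, and 1 lower, beside 17.4%. Between RasV12 and L2, 4 were called, beside 53.7% of all: 3 higher, beside 9.57%, and 1 lower, beside 44.1%. Rescaled, 3 were called, beside 48.0% of all: 3 higher, beside 22.0%, and 0 lower, beside 26.0%. Any pair of these comparisons shares the arrays of a line, so they are not independent of each other. With a single RasV12 line, oncogenic Ras cannot be told apart from whatever else sets the lines apart.

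**Figure D1:**
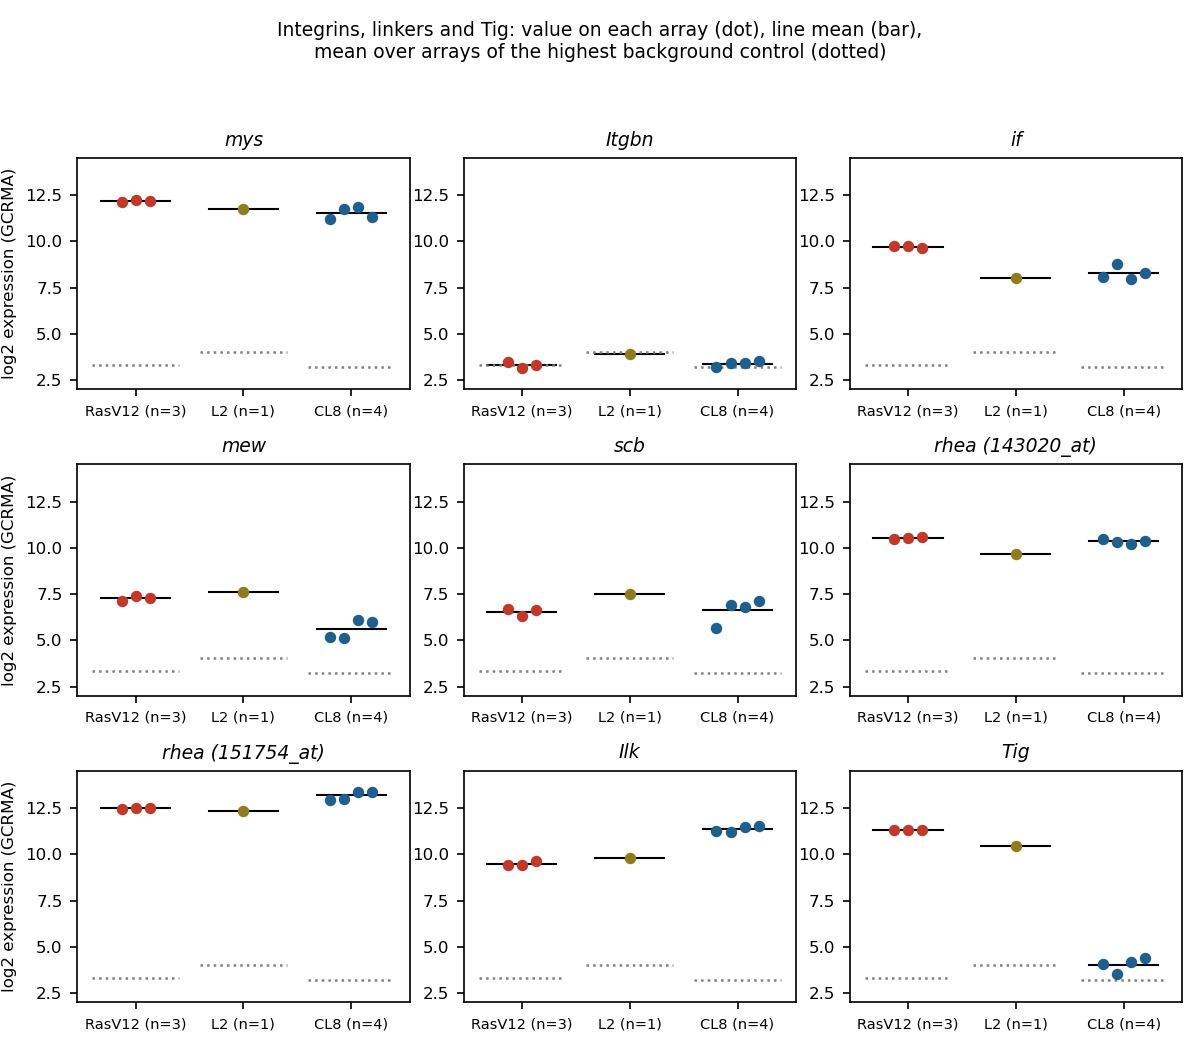
Log2 expression (GCRMA) of the 9 probe sets on each array, with a dot per array, a black bar at the mean of each line and a dotted line at the mean over arrays of the highest background control. Tig is at 10.43 to 11.33 on the RasV12 and L2 arrays and at 3.52 to 4.42 on the CL8 arrays, while Itgbn stays near the controls in all lines.

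Tig encodes tiggrin, a large secreted matrix protein and a ligand of the integrin that holds the if chain, found at muscle attachment sites. Its log2 value was 11.32, 11.31 and 11.33 on the RasV12 arrays, 10.43 on the L2 array, and 4.07, 3.52, 4.16 and 4.42 on the CL8 arrays. RasV12 and L2 were thus far above CL8 with no overlap, although the CL8 values were still above the highest control on all 4 arrays. RasV12 averaged 11.32 ± 0.009 (SD, n = 3) and CL8 averaged 4.04 ± 0.38 (SD, n = 4), which differ by 7.28 on the log2 scale (95% interval 6.83 to 7.72, limma adjusted p = 6.92e-08; 7.60 rescaled), or 155-fold. L2 differed from CL8 by 6.38 (5.73 to 7.03, limma adjusted p = 3.8e-06; 6.59 rescaled), or 83.5-fold. Both folds rest on CL8 values not far above the controls, with CL8 array 2 at 3.52 against a highest control of 3.22, so their size is uncertain. RasV12 was above L2 by 0.90 (0.22 to 1.57, limma adjusted p = 0.0327; 1.01 rescaled), or 1.86-fold. That smaller difference rests on few arrays, since without RasV12 array 1, 2 or 3 its adjusted p was 0.0578, 0.0645 or 0.0682 at a difference of 0.89 to 0.90.

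The beta chain gene mys was higher in RasV12 than in CL8. It read 12.14, 12.22 and 12.17 on the RasV12 arrays, 11.75 on the L2 array, and 11.19, 11.72, 11.86 and 11.33 on the CL8 arrays. All RasV12 arrays lay above all CL8 arrays, and L2 lay inside the CL8 range. The RasV12 mean of 12.18 ± 0.04 was above the CL8 mean of 11.53 ± 0.32 by 0.65 (0.27 to 1.03, limma adjusted p = 0.0105), or 1.57-fold. Rescaled, the difference was 1.41 (limma adjusted p = 0.000853), so the size but not the direction depended on the scaling. L2 differed from CL8 by 0.23 (-0.33 to 0.79) and RasV12 from L2 by 0.42 (-0.15 to 1.00), and neither passed the test in either scaling.

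Itgbn encodes the second beta chain of the fly, known from phagocytic blood cells and the midgut. It read 3.46, 3.17 and 3.31 in RasV12, 3.92 in L2, and 3.21, 3.40, 3.43 and 3.53 in CL8. Of the RasV12 arrays 1 was above its highest control, and the L2 array was below its own, so both lines counted as within the controls. The 4 CL8 arrays were above theirs by a small margin. RasV12 and CL8 differed by -0.079 (-0.33 to 0.17). The call of L2 above CL8, at 0.52 (limma adjusted p = 0.023), and of RasV12 below L2, at -0.60 (limma adjusted p = 0.0167), were lost on rescaling, at -0.016 and -0.048. No fold is given for these, because the L2 array also had the highest background controls.

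Of the alpha chain genes, if and mew were higher in RasV12 than in CL8, and only mew was also higher in L2. The gene if (inflated) encodes the alpha chain of the integrin that binds tiggrin and is known from muscle and the ventral layer of the wing. It read 9.76, 9.74 and 9.63 in RasV12, 8.0 in L2, and 8.07, 8.76, 7.94 and 8.29 in CL8. RasV12 stood above both other lines without overlap, and L2 lay inside the CL8 range. The RasV12 mean of 9.71 ± 0.067 differed from the CL8 mean of 8.26 ± 0.36 by 1.45 (1.02 to 1.88, limma adjusted p = 0.000258; 2.24 rescaled), or 2.73-fold. RasV12 was above L2 by 1.71 (1.06 to 2.36, limma adjusted p = 0.00203; 1.93 rescaled), or 3.27-fold. L2 and CL8 differed by -0.26 (-0.89 to 0.37), a direction that turned to 0.32 on rescaling, and neither value passed the test.

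The gene mew (multiple edematous wings) encodes the alpha chain of a laminin-binding integrin, known from the dorsal layer of the wing. It read 7.12, 7.41 and 7.29 in RasV12, 7.60 in L2, and 5.20, 5.11, 6.12 and 5.97 in CL8. RasV12 and L2 were both above every CL8 array, and L2 lay just above the RasV12 arrays. The RasV12 mean of 7.28 ± 0.15 exceeded the CL8 mean of 5.60 ± 0.52 by 1.67 (1.07 to 2.28, limma adjusted p = 0.000797; 2.14 rescaled), or 3.19-fold. L2 differed from CL8 by 2.00 (1.11 to 2.88, limma adjusted p = 0.0041; 2.26 rescaled), or 3.99-fold, while RasV12 and L2 differed by -0.32 (-1.24 to 0.59), short of the test. The size against CL8 depended on which CL8 arrays entered. The difference between RasV12 and CL8 was 1.23 without CL8 arrays 1 and 2 and 2.12 without CL8 arrays 3 and 4, and that between L2 and CL8 was 1.55 and 2.44. The same pairs stood apart on a ribosomal RNA control (middle of the 18S transcript), which read 10.13 and 9.50 on the first pair and 15.33 and 14.53 on the second. The control also differed between lines, at 9.26, 10.08 and 12.12 on the RasV12 arrays and 5.88 on the L2 array. Its part in the mew values, or in any other comparison of the lines, was not tested.

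The gene scb (scab) encodes the alpha chain of an integrin known from dorsal closure, trachea and the heart tube. It read 6.70, 6.31 and 6.66 in RasV12, 7.50 in L2, and 5.65, 6.89, 6.79 and 7.15 in CL8. CL8 array 1 was the lowest of all, the RasV12 arrays lay inside the CL8 range and L2 was above both lines. RasV12 and CL8 differed by -0.062 with a wide interval of -0.84 to 0.71, and by 0.50 rescaled, neither past the test. The L2 array was above CL8 by 0.88 (-0.25 to 2.02, limma adjusted p = 0.141) and RasV12 differed from L2 by -0.95 (-2.12 to 0.22, limma adjusted p = 0.142). Without CL8 array 1 both passed, at 0.56 (limma adjusted p = 0.0482) for L2 against CL8 and -0.95 (limma adjusted p = 0.00775) for RasV12 against L2. L2 against CL8 also passed without CL8 arrays 3 and 4, at 1.23 (limma adjusted p = 0.0425), and RasV12 against L2 without CL8 arrays 1 and 2, at -0.95 (limma adjusted p = 0.00516).

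**Figure D2:**
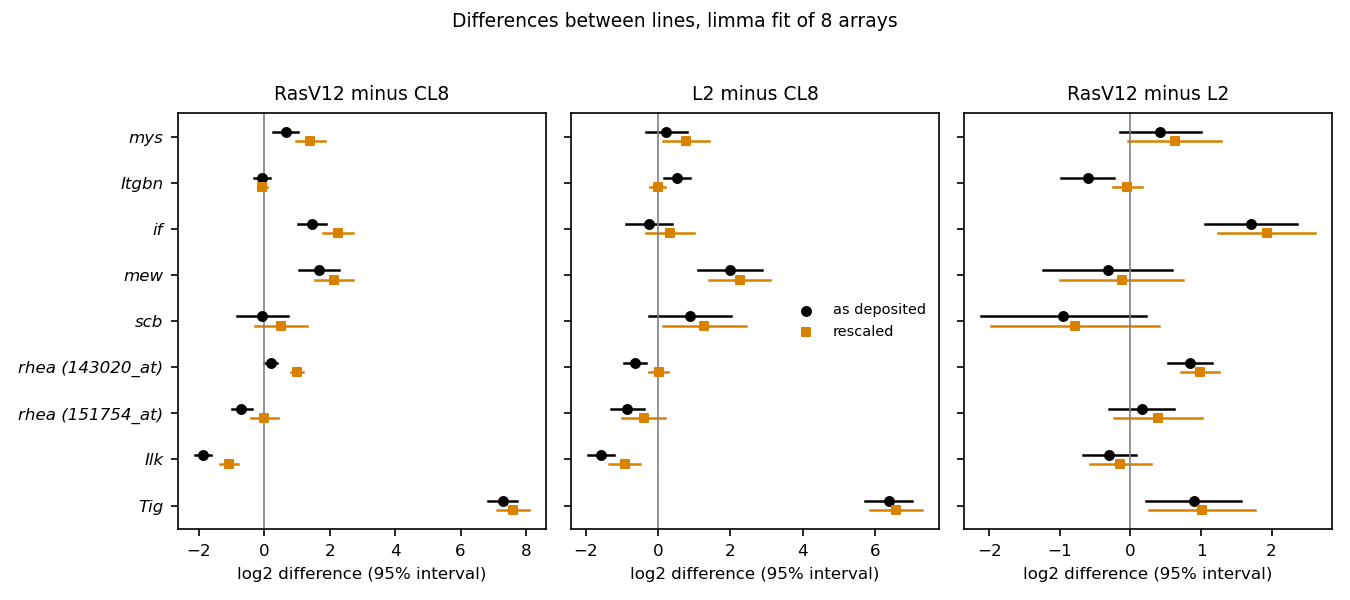
Log2 differences of the 9 probe sets in the 3 comparisons, with 95% intervals from the limma fit, as deposited (black circles) and rescaled (orange squares). In RasV12 minus CL8, mys, if, mew and Tig lie right of 0 and Ilk left of 0 in both scalings, while the rhea probe set 143020_at is at 0.19 and 1.01 and 151754_at at -0.70 and -0.0052 in the 2 scalings.

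Each alpha chain gene was also set against the shared beta chain gene. Subtracting the mys value of the same array removes any shift common to the whole array, but not one that depends on the brightness of a probe set. Only the difference of this quantity between lines has a meaning, since it is set by probe brightness otherwise. For if, it was -2.47 ± 0.08 in RasV12 (SD, n = 3), -3.75 in L2 and -3.26 ± 0.44 in CL8 (n = 4). RasV12 exceeded CL8 by 0.79 (0.83 rescaled) with no overlap, at an exact two-sided permutation p = 0.0571, the smallest that 3 against 4 arrays allow. For mew it was -4.90 ± 0.11 in RasV12, -4.16 in L2 and -5.92 ± 0.53 in CL8, and RasV12 exceeded CL8 by 1.02 (0.73 rescaled), again at exact p = 0.0571. For scb it was -5.62 ± 0.26 in RasV12, -4.25 in L2 and -4.91 ± 0.57 in CL8, with overlap, a difference of -0.71 (exact p = 0.171). Rescaled, the scb arrays did not overlap, at -5.95 to -5.50 in RasV12 and -5.20 to -4.14 in CL8, a difference of -0.91 (exact p = 0.0571). Relative to mys, L2 thus had the highest mew value of all arrays, at -4.16, and an if value within the CL8 range of -3.92 to -2.96. By design none of these within-array comparisons can reach 0.05, so none establishes that an alpha chain gene and mys shifted by different amounts.

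**Figure D3:**
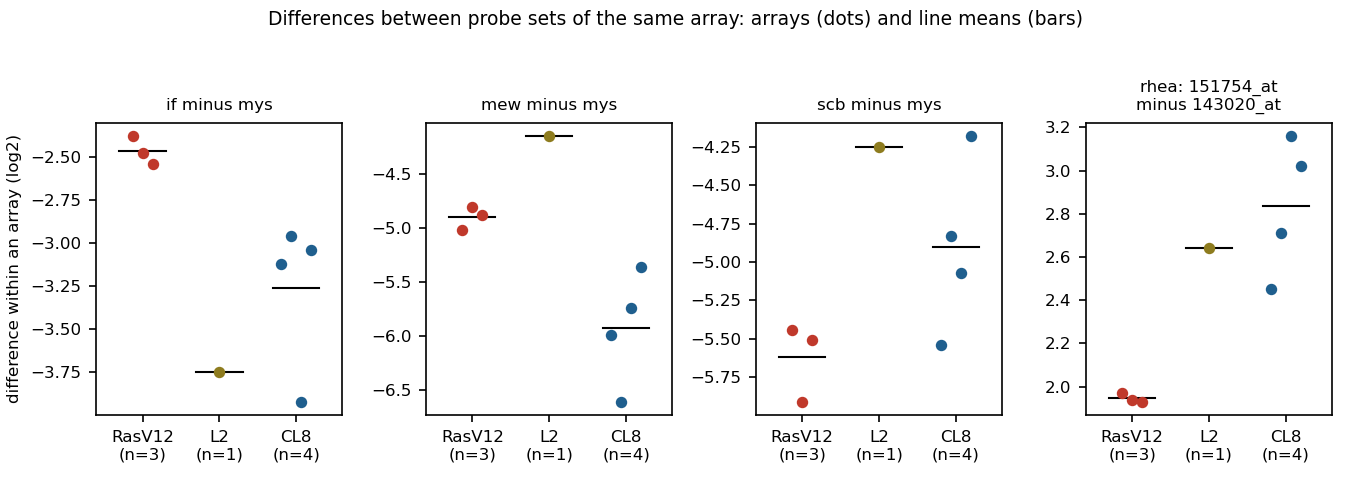
Differences between probe sets within each array, in log2 units: if, mew and scb minus mys, and the rhea probe set 151754_at minus 143020_at. Dots are arrays and bars are line means. RasV12 is above all CL8 arrays for if and mew and below all of them for the rhea probe sets.

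The talin gene rhea was the only member with 2 probe sets, and its call between RasV12 and CL8 depended on both the scaling and the probe set. Its probe set 143020_at read 10.47, 10.55 and 10.59 in RasV12, 9.69 in L2, and 10.50, 10.29, 10.23 and 10.36 in CL8. L2 was below all other arrays, and the RasV12 and CL8 arrays overlapped. RasV12 differed from CL8 by 0.19 as deposited (-0.012 to 0.40, limma adjusted p = 0.109) and by 1.01 rescaled (limma adjusted p = 7.93e-05), and without CL8 array 1 it passed on the deposited values too, at 0.24 (limma adjusted p = 0.0287). L2 against CL8 gave -0.65 (limma adjusted p = 0.00484) as deposited and 0.024 rescaled. RasV12 was above L2 in both scalings, by 0.84 (0.53 to 1.15, limma adjusted p = 0.0017; 0.99 rescaled), or 1.79-fold.

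The other rhea probe set, 151754_at, read 12.44, 12.49 and 12.52 in RasV12, 12.33 in L2, and 12.95, 13.00, 13.39 and 13.38 in CL8. Here CL8 was the highest line without overlap, and CL8 arrays 3 and 4 were above CL8 arrays 1 and 2. RasV12 differed from CL8 by -0.70 (-1.0 to -0.39, limma adjusted p = 0.00243) and L2 from CL8 by -0.85 (-1.30 to -0.40, limma adjusted p = 0.00843), but rescaled these were -0.0052 and -0.40 and did not pass. As deposited, RasV12 differed from CL8 by -0.90 without CL8 arrays 1 and 2 and by -0.49 without CL8 arrays 3 and 4. RasV12 and L2 differed by 0.16 (-0.31 to 0.62). Within an array, 151754_at exceeded 143020_at by 1.95 ± 0.02 in RasV12, by 2.63 in L2 and by 2.84 ± 0.32 in CL8. This gap was smaller on every RasV12 array than on any CL8 array, with a difference of -0.89 as deposited (exact two-sided permutation p = 0.0571) and -1.02 rescaled, a comparison chosen after its values were seen. No direction therefore holds for rhea as a whole between RasV12 and CL8.

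Ilk encodes integrin-linked kinase, a pseudokinase scaffold that binds PINCH and parvin at adhesion sites. It read 9.42, 9.43 and 9.62 in RasV12, 9.79 in L2, and 11.28, 11.22, 11.48 and 11.52 in CL8. RasV12 and L2 were both well below every CL8 array. The RasV12 mean of 9.49 ± 0.12 differed from the CL8 mean of 11.37 ± 0.15 by -1.88 (-2.13 to -1.64, limma adjusted p = 2.78e-06), a level 3.69-fold lower, and by -1.08 rescaled (limma adjusted p = 0.000453). L2 differed from CL8 by -1.59 (-1.95 to -1.23, limma adjusted p = 0.000178), or 3.01-fold lower, and by -0.93 rescaled (limma adjusted p = 0.00868). RasV12 and L2 differed by -0.30 (-0.67 to 0.076), which did not pass.

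L2 was thus nearer to RasV12 for some members and nearer to CL8 for others. On the deposited log2 values it was nearer to the RasV12 mean for Tig, Ilk and mew and nearer to the CL8 mean for if and mys. Rescaled, mys in L2 read 11.94, nearer to the RasV12 mean of 12.57 than to the CL8 mean of 11.16 and above all CL8 arrays. As deposited, L2 lay outside the range of both other lines for scb, Itgbn and both rhea probe sets, as for mew. Rescaled, this held for scb and the rhea probe set 151754_at. Itgbn, mew and the rhea probe set 143020_at then fell inside the range of another line. Which line L2 was nearer to was not tested.

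Of 38 other genes of integrin adhesion listed, 32 had a probe set of their own. As deposited, 9 of these were called higher and 12 lower in RasV12 than in CL8, beside 11.3% and 38.6% of all probe sets. Rescaled, 16 were higher and 8 lower, beside 35.5% and 29.8%, and 9 higher and 8 lower held in both scalings. The count of lower calls as deposited was thus near the share over all probe sets. Their median difference was -0.26 (0.17 rescaled), beside -0.078 (0.055 rescaled) over all probe sets. In L2 against CL8, 11 were higher and 8 lower, beside 38.3% and 23.6% of all, and rescaled 9 and 1, beside 20.2% and 17.4%, with 5 and 1 in both. In RasV12 against L2, 7 were higher and 13 lower, beside 9.57% and 44.1% of all, and rescaled 7 and 7, beside 22.0% and 26.0%, with 7 and 7 in both. ItgaPS4 and ItgaPS5 encode further alpha chains, and they read 4.31 and 3.62 in RasV12, 5.09 and 5.41 in L2, and 4.08 and 4.17 in CL8. ItgaPS5 differed by -0.55 between RasV12 and CL8 (-0.52 rescaled) and by 1.24 between L2 and CL8 (0.67 rescaled), called in both scalings. Its values were near the background, which limits these calls. The RasV12 arrays read 3.78, 3.53 and 3.54, just above their highest controls of 3.47, 3.29 and 3.24. The L2 array had the highest controls, at 4.04.

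Of 13 measured linkers, adaptors and kinases beside rhea and Ilk, 0 were called higher and 6 lower in RasV12 than in CL8 as deposited, beside 11.3% and 38.6% of all probe sets. Rescaled, 4 were higher and 3 lower, beside 35.5% and 29.8%, and the 3 lower ones were the same in both scalings. These were Pax, p130CAS and Fit2. Pax encodes the adhesion adaptor paxillin and differed by -2.05 (-1.29 rescaled; 10.69 against 12.74), although a second Pax probe set was higher in RasV12, by 0.64 (1.23 rescaled). p130CAS, a scaffold of the Cas family, differed by -2.0 (-1.16 rescaled), and Fit2, which encodes a kindlin that binds beta chain tails, by -1.34 (-0.93 rescaled). The direct partners of Ilk were lower only as deposited. stck, which encodes PINCH, differed by -1.01 (-0.27 rescaled, not passing). parvin and ics, where ics encodes a protein that binds PINCH, were named after their values were seen and differed by -0.81 and -1.0 (-0.001 and -0.19 rescaled, not passing). In L2 against CL8 parvin differed by -1.11 (-0.45 rescaled), stck by -0.62 (-0.048 rescaled) and ics by -0.70 (-0.035 rescaled), all called as deposited and none rescaled. Among these Ilk complex genes, Ilk itself was thus the one lower in both scalings.

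Of 8 measured regulators of integrin adhesion, 4 were called higher and 1 lower in RasV12 than in CL8 as deposited, beside 11.3% and 38.6% of all probe sets. Rescaled, 6 were higher and 0 lower, beside 35.5% and 29.8%, and 4 higher ones held in both scalings. kon, which encodes a transmembrane proteoglycan needed for muscles to reach their attachment sites, read 9.75 in RasV12, 3.71 in L2 and 3.30 in CL8, a difference from CL8 of 6.45 (6.81 rescaled). The CL8 arrays read 3.06, 3.39, 3.44 and 3.33, just above their highest controls of 2.98, 3.22, 3.41 and 3.29, so no fold is given against CL8. L2 lay within the controls and did not pass the test against CL8, and RasV12 exceeded L2 at least 52.4-fold. shot, a spectraplakin that links actin and microtubules, was higher by 1.88 (2.66 rescaled). pico, the fly gene of the RIAM and lamellipodin family, was higher by 1.56 (2.11 rescaled) and the adhesion scaffold gene Git by 0.51 (1.34 rescaled). PDZ-GEF, an exchange factor for Rap GTPases, was called at -0.96 as deposited and not rescaled (-1.0), with both lines within the background controls.

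Among 9 other ligand and basement membrane genes, 5 were higher and 4 lower in RasV12 than in CL8, in both scalings, beside 11.3% and 38.6% of all probe sets as deposited and 35.5% and 29.8% rescaled. Among the higher ones, Tsp (thrombospondin) has a second probe set that was lower, so no direction holds for it: 1 gave 1.45 and the other -1.24 (-1.20 rescaled). wb, which encodes a laminin alpha chain that binds integrins, read 9.38 in RasV12, 6.39 in L2 and 4.34 in CL8. It was higher than in CL8 by 5.04 in RasV12 (5.39 rescaled) and by 2.05 in L2 (1.96 rescaled). LanA, the other laminin alpha chain gene, went the opposite way between RasV12 and CL8, at -1.59 (-0.97 rescaled). LanB2, LanB1 and Col4a1 were lower too, at -1.49, -1.36 and -0.98 (-0.79, -0.64 and -0.36 rescaled). vkg was higher, at 0.46 (1.09 rescaled). trol (perlecan) and Ndg (nidogen) were within the controls in CL8 and at least 993-fold and 118-fold higher in RasV12. On the probe sets used, L2 was within the controls for both, and RasV12 exceeded it at least 565-fold and 67.3-fold. The second trol probe set gave smaller folds, with RasV12 at least 173-fold above CL8 and 42.9-fold above L2. It read 5.24 in L2 and was called above CL8 there, by 2.44 (1.82 rescaled).

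**Figure D4:**
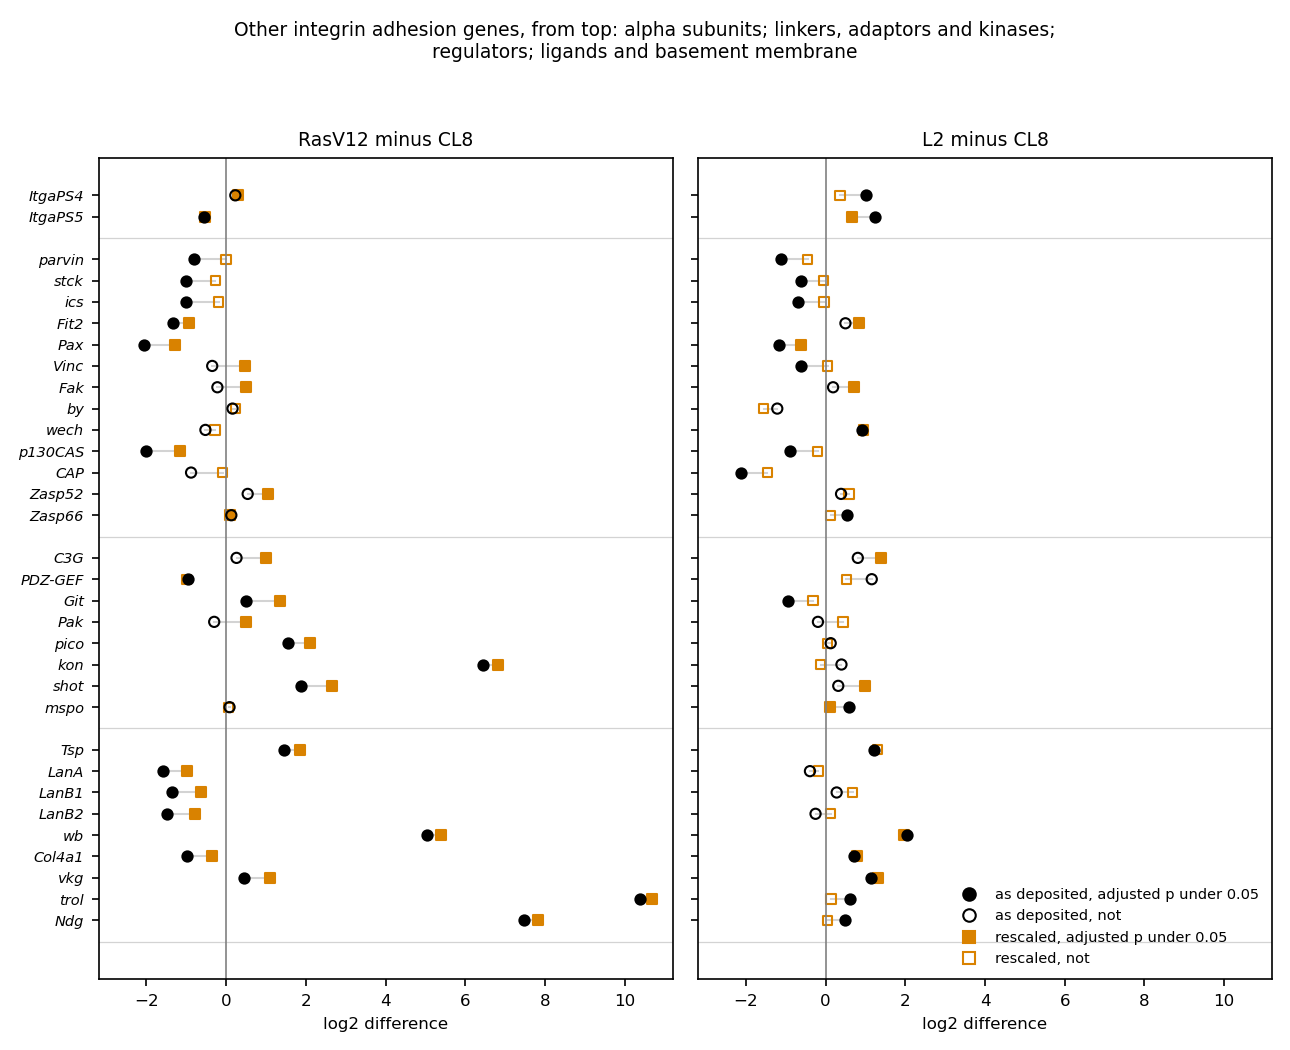
Log2 differences of 32 other integrin adhesion genes in RasV12 minus CL8 and L2 minus CL8, 1 probe set per gene, as deposited (black circles) and rescaled (orange squares), filled where the limma adjusted p was under 0.05. kon, wb, trol and Ndg stand far to the right in RasV12 minus CL8, and wb alone of these is beyond 2 on the deposited scale in L2 minus CL8.

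The genes with the pattern closest to mys and Tig were taken by the root mean square difference of log2 values over the 8 arrays, after each gene was centred on its own mean, among 10836 genes. For Tig they were noc, at 0.284, pain, at 0.59, and Dscam1, at 0.631. noc encodes a zinc finger protein and read 12.48 in RasV12, 11.22 in L2 and 5.16 in CL8. Dscam1, a cell surface protein of the immunoglobulin superfamily, read 11.30 in RasV12, 10.34 in L2 and 5.15 in CL8. pain, a TRP channel gene, read 10.10 in RasV12, 7.44 in L2 and lay within the controls in CL8. For mys the closest were BBS8, at 0.108, CG15515, at 0.125, and CG33090, at 0.126. BBS8 was within the controls in L2 and CL8, so its likeness to mys rests on small differences at the background. These likenesses are across 8 arrays of 3 lines and describe mainly the order of the line means.

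Markers of cell types in which integrins are prominent moved with some of these results. RNA of a whole culture was measured, so fewer cells of a type and less RNA per cell cannot be told apart. The labels name no cell type for any line. Of 11 mesoderm and muscle markers, 7 were measured, and 5 were called higher and 1 lower in RasV12 than in CL8 in both scalings, beside the shares of all probe sets given above (11.3% and 38.6% as deposited, 35.5% and 29.8% rescaled). Their summed level, as log2 of the sum of linear values, was 11.76 to 12.00 in RasV12, 10.55 in L2 and 6.54 to 7.01 in CL8. The sum was carried by htl, an FGF receptor gene, at 11.42 in RasV12, 10.32 in L2 and 5.27 in CL8, and by twi. In L2 against CL8, 5 of the 7 were higher and 0 lower as deposited, beside 38.3% and 23.6% of all probe sets. Rescaled, 2 were higher and 0 lower, beside 20.2% and 17.4%, and these 2 held in both scalings. They were htl, at 5.05 (5.35 rescaled), and twi, at 4.29 (4.37 rescaled). Tig differed by 6.38 (6.59 rescaled) in the same comparison. The median difference of the 7 markers was 0.43 (-0.10 rescaled). twi, which specifies mesoderm, read 9.34 in RasV12 and 7.12 in L2 and was within the controls in CL8, while sna was within the controls in all lines. The 4 genes taken as tendon markers were sr, slow, Alk and shot, and how particular each is to tendon was not checked. Read against the RasV12 and CL8 shares, 2 of the 4 were higher in RasV12 in both scalings and 0 lower in both. The 2 were shot and slow, with slow at 9.82 in RasV12 and 5.43 in CL8. The summed levels of the 4 were 11.75 to 11.82 in RasV12, 9.97 in L2 and 9.54 to 9.62 in CL8. These sums were carried mainly by shot, also listed above among the regulators, at 11.33 in RasV12, 9.76 in L2 and 9.44 in CL8. The tendon determinant sr was within the controls in all lines. Of 8 measured hemocyte markers, 2 were higher and 5 lower in RasV12 than in CL8 in both scalings. The shares of all probe sets were 11.3% and 38.6% as deposited and 35.5% and 29.8% rescaled. The 2 higher ones were Hml, at 4.30 in RasV12 and 3.47 in CL8, and NimC1, at 4.34 and 3.70. Both were near the background controls, which limits these calls. The 5 lower ones were srp, ush, eater, Pxn and Pvr. The summed levels of the 8 were 11.09 to 11.22 in RasV12, 14.38 in L2 and 14.36 to 14.61 in CL8. The largest part was Pvr, at 10.20 in RasV12, 13.54 in L2 and 13.53 in CL8. The L2 and CL8 sums were alike. Of the 8 markers, 2 were lower in L2 in both scalings, beside 23.6% of all probe sets as deposited and 17.4% rescaled. In both scalings 0 were higher, beside 38.3% and 20.2%. The count of lower markers was near the share over all probe sets. The 2 lower ones were eater, at -4.24 (-3.69 rescaled), and ush, at -1.50 (-0.82 rescaled). Of 6 epithelial markers, 3 were higher and 2 lower in RasV12 than in CL8 in both scalings, beside the same RasV12 and CL8 shares. The summed levels of the 6 were 14.45 to 14.55 in RasV12, 11.45 in L2 and 12.80 to 12.95 in CL8. In RasV12 the sum was carried by Lac, at 13.74, and Nrg, at 12.47. Against CL8, Lac, Nrg and shg differed by 4.51, 1.52 and 1.11, and crb and ed by -2.64 and -1.68. Of the 4 probe sets of ed, only the one used was called. The others gave -0.84, -0.31 and -0.59 (-0.14, -0.26 and -0.23 rescaled). The part of any of these cell types in the integrin and Tig values was not tested.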

How the data were processed

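RNA of the 8 flask samples was hybridised to Affymetrix DrosGenome1 arrays. The deposited values are log2 expression values that the authors computed with GCRMA, per the series' design text. The log2 unit follows from GCRMA and the range of the values, and the sources used here do not state whether the arrays were run through GCRMA together. The columns carry a median of 14 decimals in RasV12 and of 9 in L2 and CL8, so a separate run of the RasV12 arrays cannot be told apart from a difference between lines.

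After removal of 44 controls, 13966 probe sets were tested. Names came from the platform annotation and were updated through gene identifiers to RefSeq (Release 6 assembly, names only): 12443 probe sets had 1 gene, 327 several and 1196 none, with a RefSeq match for 12394 of the first kind. For the listed adhesion and marker genes, each gene was represented by its probe set of highest mean.

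Lines were grouped by sample title. The lines were compared with limma 3.58.1 (R 4.3.3) in 1 fit of all 8 arrays, with 3 comparisons, Benjamini-Hochberg adjustment over all 13966 probe sets in each and a threshold of 0.05. All fits were repeated after quantile normalization. The code was tested on simulated data. Other settings were a filter on dim probe sets, a mean-variance trend, single arrays or CL8 pairs left out, no L2 array and the replicate number as a block. Differences within an array were tested by exact permutation over arrays with scipy 1.17.1. The precision is limited by the number of arrays.

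The members, the lists of adhesion and marker genes and the CL8 pairs were chosen with earlier results of these data known. Named were all 8 members, in each adhesion group the 4 genes called between RasV12 and CL8 with the largest difference and every called gene in groups with 5 or fewer calls, and for mys and Tig the 3 genes closest in pattern. Named beyond this rule were ItgaPS4, parvin, ics, Tsp, LanB1, LanB2, Col4a1, vkg and single marker genes. Fit1, Zyx, Src42A, Src64B, Rap1 and rtGEF of the adhesion list, and tin, Mef2, how, Mhc and He of the marker lists, matched no probe set of 1 gene and are not analysed here.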

Additional observations from a re-analysis of the deposited data

How the results depend on the processing

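Over the 9 probe sets and all alternatives, 320 of 342 recomputed differences kept their direction and their side of the threshold. Of the others, 6 gained a call, 8 lost one and 10 changed sign, with 2 both losing the call and changing sign. No call of if, mew or Ilk and no call of mys or Tig between RasV12 and CL8 was among the 22. Where the array left out belonged to neither line compared, the difference itself could not change. The 320 include such differences, so that count overstates how far the results were put to the test. Rescaling lowered the count for L2 against CL8 to 5245 of all probe sets, from 8636 as deposited, to 3 of the members' probe sets (6 as deposited) and to 10 of the listed adhesion genes (19 as deposited). Sign changes between RasV12 and CL8 came in differences that did not pass: scb gave 0.50 rescaled, 0.11 with the replicate block, 0.29 without CL8 arrays 3 and 4 and -0.39 to 0.11 when single arrays were left out, and Itgbn gave 0.01 without CL8 arrays 3 and 4. Between L2 and CL8, rescaling gave -0.016 for Itgbn and 0.024 for rhea 143020_at, which both lost their call, and 0.32 for if, not called in either scaling. The cause was not tested. The within-array differences kept their sign when single arrays were left out, at 0.58 to 0.89 for if, 0.79 to 1.21 for mew, -0.93 to -0.47 for scb and -1.02 to -0.78 for rhea. RasV12 and CL8 share replicate numbers 1 to 3. Same-numbered arrays correlated at -0.252, -0.137 and -0.0938 in their deviations from the line means, and the other pairs at -0.066 to 0.19. Deviations from a mean of 3 arrays are tied to each other, so these values cannot decide whether same-numbered arrays were paired. The fit with the number as a block held replicates 1 to 3 of both lines, so CL8 array 4 and L2 were left out. It called 6334 probe sets between RasV12 and CL8, and 6 of the members' probe sets. Without a block, 6665 probe sets were called when CL8 array 4 was left out and 6969 with all arrays. Signal near background limits what Itgbn can show.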
